A study of Mus musculus with 16 samples.

Results

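Expression of the MHC class I pathway was examined in DN3 thymocytes, the immature CD4- CD8- T-cell progenitors in which the Lmo2 oncogene establishes pre-leukemic stem cells. The 10 genes were chosen by name for their place in the pathway, with earlier results of these data known, and all 10 are among the 22114 genes counted. They are the heavy chains H2-K1, H2-D1, H2-Q6, H2-Q1 and H2-T3, the light chain B2m, the peptide transporter subunits Tap1 and Tap2, the loading factor Tapbp and the regulator Nlrc5.

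An MHC class I molecule consists of a heavy chain, the invariant light chain beta-2-microglobulin and a short peptide. Peptides made by the proteasome enter the endoplasmic reticulum through the transporter formed by Tap1 and Tap2, and tapasin (Tapbp) holds the empty heavy chain beside the transporter until a peptide is bound. In C57BL/6 mice the classical heavy chains H2-K1 and H2-D1 present peptides to CD8+ T cells, whereas the Q and T region genes encode nonclassical molecules, among them the thymus leukemia antigen encoded by H2-T3. Nlrc5 is the transactivator of class I genes, as Ciita is of class II genes. Immature thymocytes are known to carry less class I on their surface than mature T cells.

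RNA was taken from 2 experiments on C57BL/6 mice, each library being made from the pooled cells of several mice and captured by poly-A tails. In the first, 2-month-old mice heterozygous for the doxycycline-inducible knock-in TetOP-H2B-GFP and carrying Lmo2Tg, an Lmo2 transgene driven in the T lineage by the CD2 promoter, received doxycycline for 6 weeks and were then chased without it for 2 weeks. DN3 cells were sorted into those that had kept the label through few divisions (GFPhi, 3 libraries) and those that had diluted it (GFPlo, 3 libraries), so that GFPlo cells carry the same transgenes as GFPhi cells. The cells came from 3 separate cohorts of mice, and the labels do not say whether a replicate number marks a cohort. In the second, total DN3 cells came from 6-week-old wild-type (WT, 3 libraries), p21-deficient (p21-/-, 2 libraries used), Lmo2Tg (2) and Lmo2Tg;p21-/- (2) mice without sorting by GFP, p21 being the cell-cycle inhibitor encoded by Cdkn1a. The Lmo2Tg libraries could be tied to their group but not to a replicate number, and are called a and b.

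Total counts were 26861394 to 31106213 in the GFP libraries and 13864936 to 16837667 in the genotype libraries. Levels are given as CPM, counts scaled to a common library total, after TMM normalization, a scaling that equalizes the bulk of the genes between libraries, and 3 counts then correspond to 0.0966 to 0.112 CPM and to 0.176 to 0.222 CPM, counting error only. All 8 DN3 markers, such as Ptcra and Il2ra, had counts in every library. Lmo2 had 1 to 5 counts in the libraries without the transgene and 560 to 1772 counts in those of the second experiment that carry it. Cdkn1a was at 36.5 to 49.0 CPM in WT, at 14.3 and 17.7 CPM in p21-/- and at 3.50 and 4.35 CPM in Lmo2Tg;p21-/- libraries, so its counts were lowered but not lost where the gene is labelled as deleted. GFPhi library 3 stood apart from its group: over genes its counts differed from those of GFPhi libraries 1 and 2 by a chi-square of 115 and 134 per gene, against 7.60 between libraries 1 and 2, and it held 7651 Lmo2 counts against 865 to 1464 in the other GFP libraries. Cdkn1a was at 6.55 CPM in it, below the 8.08 to 12.0 CPM of the GFPlo libraries and the 35.8 and 29.9 CPM of GFPhi libraries 1 and 2, so that for this gene the library labelled GFPhi 3 was unlike its group. Each result for the 10 genes in this comparison is therefore given with all 6 libraries and with the 5 that leave GFPhi library 3 out, as are the counts of called genes in other lists.

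On GRCm38, 8 of the 10 genes lie in the MHC of chromosome 17: Tapbp at chr17:33915899-33929292, H2-K1 at chr17:33996017-34000347, Tap1 at chr17:34187553-34197225, Tap2 at chr17:34203527-34216321, H2-D1 at chr17:35262730-35267499, H2-Q1 at chr17:35320405-35325099, H2-Q6 at chr17:35424850-35430055 and H2-T3 at chr17:36185572-36190287. B2m lies at chr2:122147686-122153083 and Nlrc5 at chr8:94434356-94527272. Counts are per gene. The heavy chains resemble each other, so reads can be shared between them: 12.4% of the 100-base words in H2-Q1 transcripts and 10.8% of those in H2-Q6 transcripts also occur in another gene, against 4.09% for H2-D1 and 0% for H2-K1 and H2-T3. The closest partner of H2-Q6 is H2-Q7, which holds 8.36% of its words, and that of H2-Q1 is H2-Q2 with 5.22%. For 50-base words the shares were 32.0% for H2-Q6, 22.3% for H2-Q1, 13.9% for H2-D1, 6.87% for H2-K1 and 1.19% for H2-T3. Exons of Tap1 overlap Psmb9 on the other strand, those of Tapbp overlap Zbtb22 on the same strand, and those of Tap2 and Nlrc5 overlap noncoding or predicted genes on the other strand. Values of the heavy chains are uncertain to the extent of these shares, and those of Tap1, Tap2, Tapbp and Nlrc5 to the extent of the overlaps, since whether reads were counted by strand is not given in the sources used here.

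Class I promoters are known for a shared proximal module in which a kappa B site, an interferon-response element and the SXY elements bound by Nlrc5-containing complexes follow each other. RefSeq promoter windows on GRCm38.p6, from 250 bases before to 50 bases after a start, matched 7 of the 10 genes, and none was found for H2-Q1, Tap2 and Nlrc5. Stretches upstream of the start are printed for H2-K1, for H2-Q6 and its partner H2-Q7, which had the largest differences between GFPhi and GFPlo cells among the class I heavy chains tested, and for B2m as the light chain. They lie on the minus strand at chr17:34000354-34000479 (H2-K1), on the plus strand at chr17:35424656-35424804 (H2-Q6) and chr17:35439017-35439124 (H2-Q7), and on the plus strand at chr2:122147543-122147643 (B2m), and they are written 5′ to 3′ along the gene. Capitals mark matches, on either strand, to GGGGA and CCC with 2 bases of any kind between them (kappa B-like), to GAAA repeated after 2 bases of any kind (interferon response-like), to TGACG (cAMP response-like) and CCAAT (Y box), and to GAANNGAAA, a shorter interferon response-like motif that was added after the sequences had been seen.
H2-K1: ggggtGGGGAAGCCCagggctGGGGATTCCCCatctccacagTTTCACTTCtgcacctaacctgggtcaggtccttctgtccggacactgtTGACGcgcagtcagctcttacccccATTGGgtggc
H2-Q6: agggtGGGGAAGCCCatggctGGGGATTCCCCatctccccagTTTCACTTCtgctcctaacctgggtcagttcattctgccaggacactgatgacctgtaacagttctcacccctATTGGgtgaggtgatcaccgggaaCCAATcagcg
H2-Q7: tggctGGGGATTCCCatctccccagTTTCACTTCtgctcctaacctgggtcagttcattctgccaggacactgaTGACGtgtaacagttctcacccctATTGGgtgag
B2m: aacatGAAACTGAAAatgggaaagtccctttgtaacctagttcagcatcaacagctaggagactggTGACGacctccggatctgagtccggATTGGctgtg

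The kappa B-like motif was found in the windows of H2-K1, H2-D1, H2-Q6 and H2-Q7 and in 1.65% of all 32841 promoter windows. The windows of H2-K1, H2-D1 and H2-Q6 each held 3 such matches, of which a pair overlapped on opposite strands, and that of H2-Q7 held 1. The shorter interferon response-like motif was found in the same 4 windows and in 7.51% of all. The longer interferon response-like motif was found only in that of B2m among these genes, and in 3.44% of all windows. TGACG was in the windows of H2-K1, H2-D1, H2-Q7, B2m and Tap1 and in 20.8% of all, and CCAAT was in the windows of H2-Q7 and of all 7 genes but H2-T3 and in 37.4% of all. The window of H2-T3 held none of the 5 motifs, which says only that these letters are not in it.

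Per kilobase of exon, which allows genes to be compared with each other, the level in WT DN3 cells was highest for B2m, at 1069 ± 64.2 CPM per kilobase (SD, n = 3). The classical heavy chains followed, with 136 ± 8.46 CPM per kilobase for H2-K1 and 129 ± 8.95 for H2-D1, and their libraries overlapped. Tap2 (40.9 ± 2.27), Tapbp (35.5 ± 0.579) and Tap1 (27.3 ± 0.699 CPM per kilobase) came next, in that order and without overlap. The length used was that of all annotated exons of a gene together, which is 5476 bases for Tap1. Protein-coding transcripts of Tap1 hold only 2997 distinct words of 50 bases, against 3531 for Tap2 and 3087 for Tapbp. The order of these 3 genes therefore depends on the length chosen. Nlrc5 (5.35 ± 0.659) and H2-Q6 (4.33 ± 1.68 CPM per kilobase) overlapped, and so did H2-Q1 (0.149 ± 0.105) and H2-T3 (0.135 ± 0.0952 CPM per kilobase) at the lower end. The light chain was thus the most abundant transcript of the pathway in these cells, above the sum of the 2 classical heavy chains in each WT library.

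GFPhi cells were then compared with GFPlo cells, which asks how the class I pathway differs between DN3 cells that divide little and those that divide often. H2-D1, H2-Q6 and H2-T3 were higher in GFPhi cells with both sets of libraries, while B2m, Tap1 and Tapbp did not pass the test with either. With all 6 libraries, 3 of the 10 genes passed and all were heavy chains higher in GFPhi cells: H2-D1, H2-Q6 and H2-T3. In that test 14.9% of 11581 genes were called in either direction, 5.37% higher and 9.49% lower. H2-Q6, H2-T3 and H2-Q1 had already been singled out from these libraries for this comparison, so their tests are no independent evidence and the count of 3 is a description. With the replicate number as a block none of the 3 passed (edgeR adjusted p = 0.12 for H2-D1, 0.068 for H2-Q6 and 0.093 for H2-T3). With the 5 libraries, 6 of the 10 were higher in GFPhi cells (the 5 heavy chains and Nlrc5) and Tap2 was lower, where 41.3% of 11745 genes were called, 19.5% higher and 21.7% lower. GFPhi and GFPlo libraries did not overlap for 5 of the 10 genes, all higher in GFPhi cells, against 19.6% of all genes tested that were higher and 21.7% that were lower without overlap. p-values are from edgeR's quasi-likelihood test, adjusted by Benjamini-Hochberg over all genes tested, and a gene was called at an adjusted p under 0.05.

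**Figure D1:**
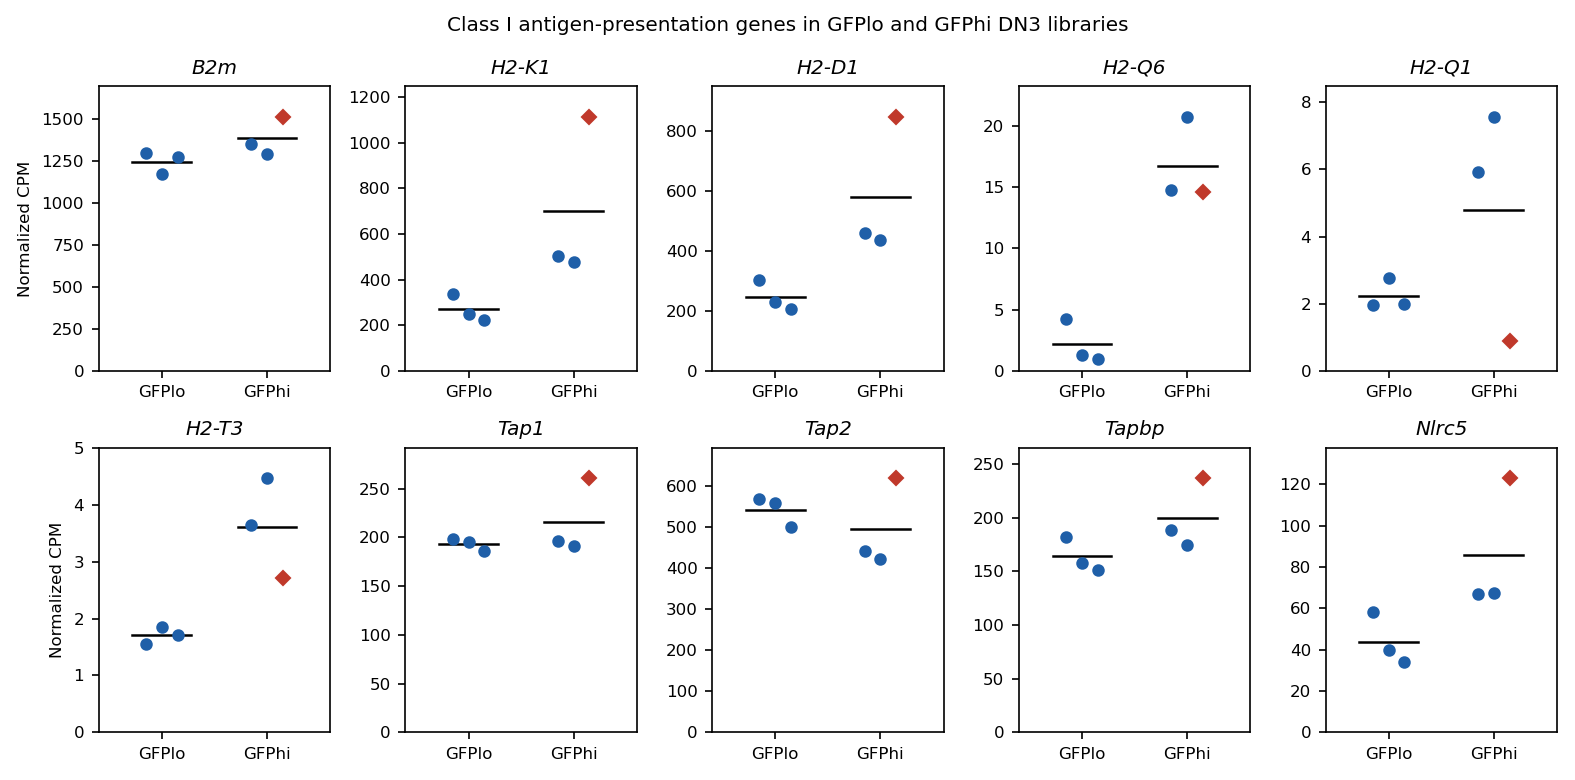
Normalized CPM of the 10 class I genes (1 panel each, linear axis from 0) in each GFPlo and GFPhi library. Points are libraries, the red diamond is GFPhi library 3 and lines are group means; H2-Q6 was at 0.934 to 4.25 CPM in GFPlo and at 14.6 to 20.7 CPM in GFPhi libraries, whereas B2m overlapped.

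The invariant light chain B2m was at 1296, 1168 and 1271 CPM in GFPlo libraries 1 to 3 and at 1346, 1288 and 1513 CPM in GFPhi libraries 1 to 3. The groups overlapped, since GFPhi library 2 lay below GFPlo library 1. The log2 fold change was 0.15 (SE 0.085, edgeR adjusted p = 0.27), and 0.09 (SE 0.065, adjusted p = 0.32) with the 5 libraries. The median gene of chromosome 2, on which B2m lies, was lower in GFPhi cells by a log2 fold change of -0.18, and that of chromosome 17 by -0.15, against 0.02 over all genes.

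Of the classical heavy chains, H2-K1 was at 335, 249.6 and 225 CPM in GFPlo and at 503, 478 and 1115 CPM in GFPhi libraries. Each GFPhi library was above each GFPlo library, and GFPhi library 3 was more than 2-fold above the other 2. The log2 fold change was 1.37 (SE 0.37) and missed the threshold (edgeR adjusted p = 0.057), while with the 5 libraries it was smaller, at 0.87 (SE 0.16), and passed (adjusted p = 0.0054). H2-D1 was at 303, 228 and 206 CPM in GFPlo and at 459, 435 and 848 CPM in GFPhi libraries, again without overlap. Its log2 fold change was 1.24 (SE 0.30, adjusted p = 0.043) and 0.87 (SE 0.15, adjusted p = 0.0047) with the 5 libraries. Both classical genes had the same order of libraries, with GFPlo library 1 the highest of its group and GFPhi library 3 the highest of all.

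Among the nonclassical heavy chains, H2-Q6 had the largest difference of the 10 genes. It was at 4.25, 1.33 and 0.934 CPM in GFPlo and at 14.7, 20.7 and 14.6 CPM in GFPhi libraries, with the groups far apart and GFPhi library 3 close to library 1. The log2 fold change was 2.95 (SE 0.59, edgeR adjusted p = 0.026) and 3.06 (SE 0.52, adjusted p = 0.0046) with the 5 libraries. H2-Q7, its closest relative in sequence, was at 7.25, 3.67 and 3.22 CPM in GFPlo and at 49.0, 53.3 and 55.8 CPM in GFPhi libraries. Its log2 fold change was 3.49 (SE 0.33, adjusted p = 0.0034). Since both genes share words of 50 and of 100 bases, the counts cannot be assigned to either with certainty, but both moved in the same direction.

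H2-T3, the thymus leukemia antigen gene, was low throughout, at 1.55, 1.85 and 1.71 CPM in GFPlo and at 3.64, 4.47 and 2.72 CPM in GFPhi libraries. The groups did not overlap, and the log2 fold change was 1.08 (SE 0.24, edgeR adjusted p = 0.035) and 1.26 (SE 0.20, adjusted p = 0.0034) with the 5 libraries. H2-Q1 was at 1.96, 2.76 and 2.00 CPM in GFPlo and at 5.91, 7.57 and 0.894 CPM in GFPhi libraries. GFPhi library 3 was here the lowest of all 6, so the groups overlapped and the log2 fold change of 1.10 (SE 0.70, adjusted p = 0.32) became 1.60 (SE 0.21, adjusted p = 0.0018) without it. H2-Q2, the closest relative of H2-Q1, was also lowest in GFPhi library 3, at 31.6 CPM against 72.7 and 87.5 CPM in the other GFPhi and 75.9 to 93.5 CPM in GFPlo libraries.

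None of the transporter and loading genes passed the test with all 6 libraries. Tap1 was at 198, 196 and 186 CPM in GFPlo and at 196, 192 and 261 CPM in GFPhi libraries, where libraries 1 and 2 of GFPhi lay within the GFPlo range. Its log2 fold change was 0.16 (SE 0.13, edgeR adjusted p = 0.42) and 0.01 (SE 0.050, adjusted p = 0.89) with the 5 libraries. Tap2 was at 568, 557 and 501 CPM in GFPlo and at 441, 423 and 619 CPM in GFPhi libraries, the first 2 of which were below every GFPlo library and the last above. It had a log2 fold change of -0.13 (SE 0.16, adjusted p = 0.59), and of -0.32 (SE 0.069, adjusted p = 0.011) with the 5 libraries. Tapbp was at 182, 158 and 152 CPM in GFPlo and at 189, 175 and 237 CPM in GFPhi libraries, with overlap and a log2 fold change of 0.29 (SE 0.13, adjusted p = 0.19), or 0.15 (SE 0.086, adjusted p = 0.19) with the 5 libraries.

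The transactivator Nlrc5 was at 58.2, 39.6 and 33.9 CPM in GFPlo and at 66.9, 67.6 and 123 CPM in GFPhi libraries. Every GFPhi library was higher, and the order of libraries was that of H2-K1 and H2-D1 except for GFPhi libraries 1 and 2, which were nearly equal. The log2 fold change was 0.97 (SE 0.31, edgeR adjusted p = 0.09) and 0.62 (SE 0.20, adjusted p = 0.048) with the 5 libraries, so the call depended on GFPhi library 3. Leaving out any other library gave 0 or 1 called genes of the 10, the 1 being H2-Q6 without GFPlo library 1, against 3 with all 6 libraries.

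**Figure D2:**
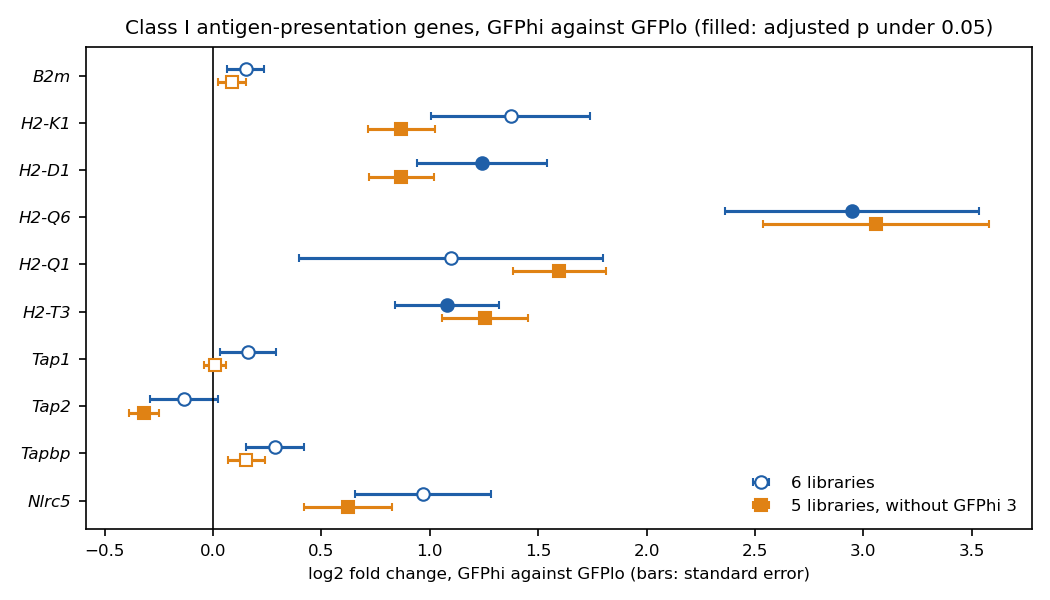
Log2 fold change of the 10 class I genes in GFPhi against GFPlo cells with all 6 libraries (circles) and with the 5 that leave out GFPhi library 3 (squares). Bars are standard errors and filled symbols have an adjusted p under 0.05; the heavy chains lie to the right, from 0.87 to 3.06 with the 5 libraries, and B2m, Tap1 and Tapbp near 0.

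Other genes of the pathway were counted from lists of their known roles. Over all genes tested 14.9% were called with all 6 libraries and 41.3% with the 5, so counts near these shares say little about a list. Of 15 other class I and class I-like heavy chains counted, 10 could be tested and 3 were called, all higher in GFPhi cells: H2-Q7, H2-T22 (log2 fold change 0.82, SE 0.14, edgeR adjusted p = 0.018) and H2-M3 (0.54, SE 0.11, adjusted p = 0.028), which presents formylated peptides. The median of these 10 was 0.58, and with the 5 libraries 6 were called, all higher. Of 10 genes of peptide supply and loading, 10 had a positive log2 fold change with a median of 0.24, against 0.02 over all genes, but 1 was called with all 6 libraries, the peptide-trimming protease Erap1 (0.24, SE 0.056, adjusted p = 0.040). With the 5 libraries 8 of these 10 were called higher, among them the chaperone Canx (0.46) and the immunoproteasome subunit Psmb10 (0.45). Of 12 regulators, Irf1 (0.44, SE 0.074, adjusted p = 0.016), Rfx5 (0.49, SE 0.10, adjusted p = 0.031) and Stat2 (0.36, SE 0.092, adjusted p = 0.049) were higher and the Y box subunit Nfya was lower (-0.35, SE 0.066, adjusted p = 0.023), while with the 5 libraries 4 were higher and 1 lower. Of 11 interferon-induced genes, Ifit1 was called lower with all 6 libraries (-1.14, SE 0.25, adjusted p = 0.034) and none higher, with a list median of -0.36. With the 5 libraries Usp18 was called higher (1.19) and Ifit1, Iigp1 and Rsad2 lower.

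**Figure D3:**
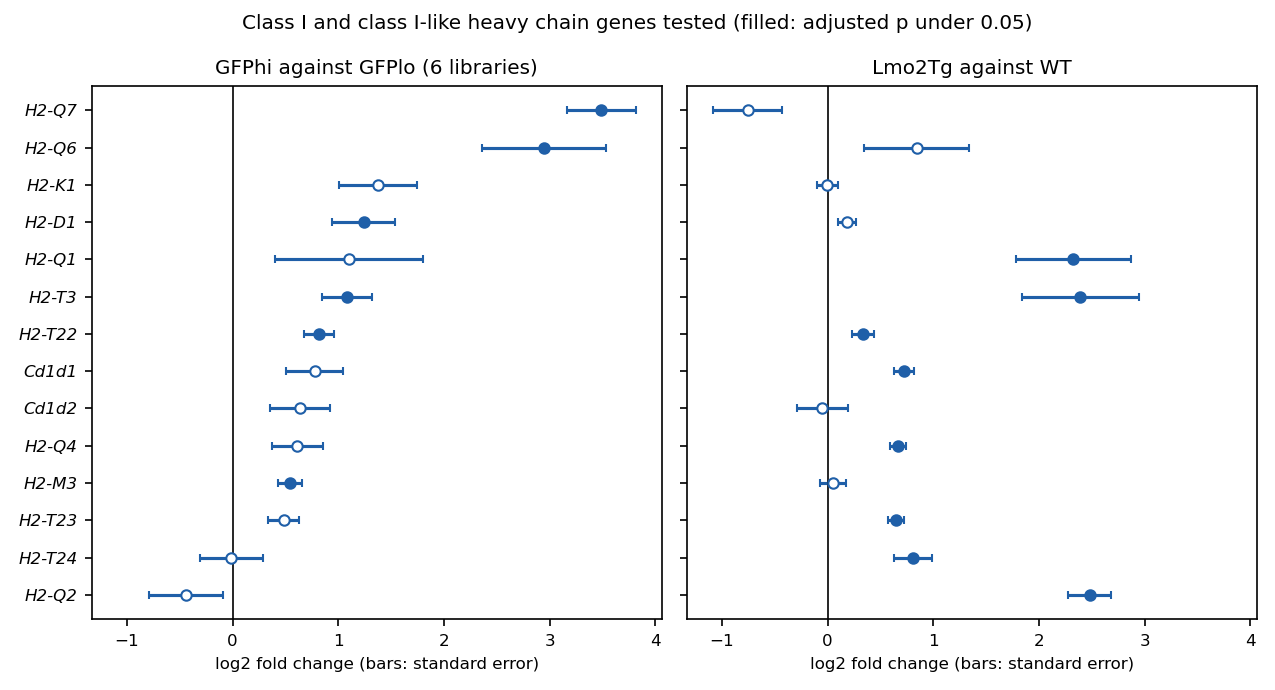
Log2 fold change of the class I and class I-like H2 and Cd1d heavy chain genes tested, in GFPhi against GFPlo cells (left, 6 libraries) and in Lmo2Tg against WT cells (right). Bars are standard errors and filled symbols have an adjusted p under 0.05; H2-Q7 had the largest difference on the left (3.49), and H2-Q2 on the right (2.48).

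Markers of other cells moved with the same comparison. Of 8 B-cell markers, 7 could be tested and 4 were called higher in GFPhi cells (Ms4a1, Cd22, Pax5 and Cd79a), and with the 5 libraries 6 of 8. These 4 had at most 7 counts in any GFPlo library and so passed the filter on low counts only through the GFPhi group. Ebf1, tested only with the 5 libraries, had 1 or 2 counts in GFPlo libraries and passed in the same way. The summed level of the 8 was 24.6 to 28.2 CPM in GFPlo and 28.9 to 56.7 CPM in GFPhi libraries. Cd79b, which was not called (log2 fold change 0.04, SE 0.145), made up 21.6 to 23.8 CPM and 19.4 to 27.6 CPM of it. Ms4a1, which encodes CD20, had 0, 0 and 1 counts in GFPlo and 51, 222 and 60 counts in GFPhi libraries, and Pax5 had 0, 2 and 3 against 34, 174 and 41 counts. Of 7 MHC class II genes, 5 were called higher with either set of libraries. Among those called, Ciita, H2-Aa, H2-Eb1 and Cd74 had at most 14 counts in any GFPlo library. With all 6 libraries they passed the filter only through the GFPhi group, so they had to differ once tested and their calls are a description. The sum of the 7 class II genes was 14.2 to 17.7 CPM in GFPlo and 35.4 to 127 CPM in GFPhi libraries. Both sums were highest in GFPhi library 2, as were H2-Q6, H2-Q1 and H2-T3, whereas H2-K1, H2-D1 and Nlrc5 were highest in GFPhi library 3. Without GFPhi library 2 the log2 fold changes were 1.41 for H2-D1, 2.76 for H2-Q6 and 0.90 for H2-T3, and edgeR's adjusted p was 0.051, 0.064 and 0.085. In bulk RNA a larger number of such cells and more RNA per cell cannot be told apart, and the part of these cells in the class I result was not tested.

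Of 8 DN3 markers, Il2ra was called higher in GFPhi cells (log2 fold change 0.68, SE 0.14, edgeR adjusted p = 0.029), and the summed level of the list was 4940 to 5230 CPM in GFPlo and 5740 to 6920 CPM in GFPhi libraries. With the 5 libraries Il2ra, Lck and Ptcra were called higher. The share called over all genes tested was 14.9% with all 6 libraries and 41.3% with the 5. The 8 myeloid and dendritic markers summed to 9.95 to 11.6 CPM in GFPlo and to 7.38 to 8.68 CPM in GFPhi libraries, and 0 of the 2 that could be tested were called. These 2, Lyz2 and Itgam, made up most of the sum. Csf1r and Adgre1 went the other way, with 0 to 3 counts in GFPlo and 4 to 30 counts in GFPhi libraries. With the 5 libraries 4 could be tested, and Csf1r was called higher and Itgam lower. Csf1r passed the filter on low counts only through the GFPhi group, so it had to differ once tested. None of 7 markers of later thymocytes and mature T cells was called with all 6 libraries, and with the 5 libraries 3 were higher and 2 lower. Of 4 NK markers, 2 could be tested and 0 were called, but with the 5 libraries Prf1 was called higher (2.45). Prf1 had 21, 9 and 5 counts in GFPlo libraries, and with the 5 libraries it too passed the filter only through the GFPhi group. Of 6 markers of thymic epithelium, which carries both classes of MHC, Epcam was called higher (1.59) and Aire lower (-3.26), with the same calls in the 5 libraries, while Foxn1, Krt5, Krt8 and Psmb11 had 0 to 3 counts in every library.

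**Figure D4:**
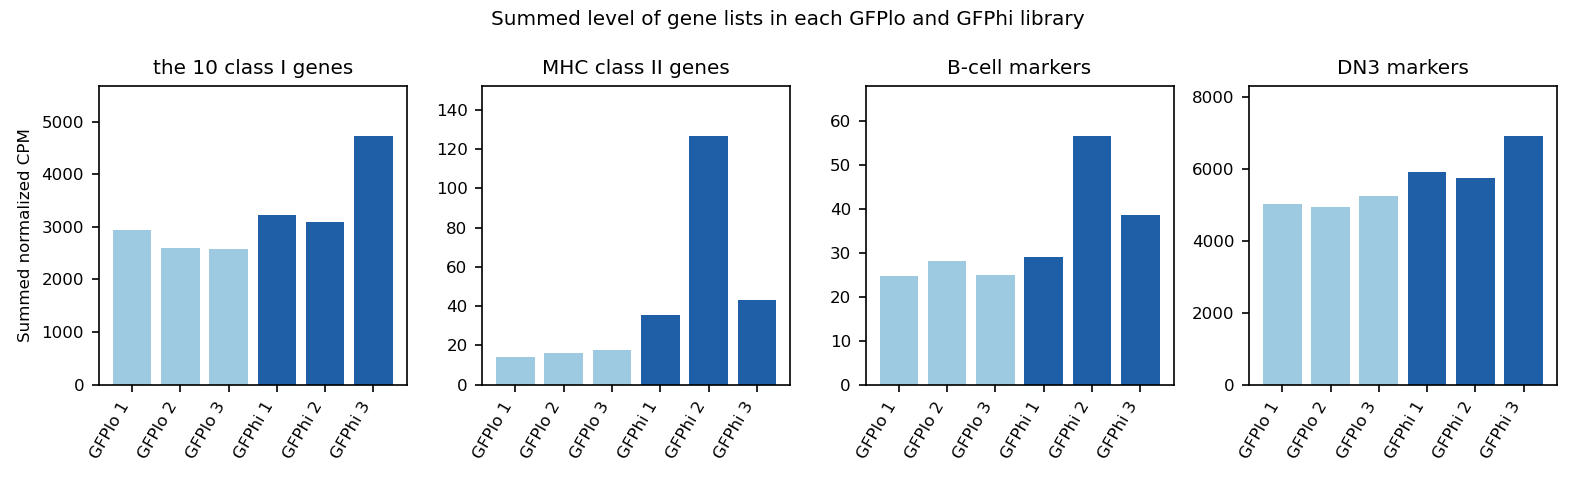
Summed normalized CPM of the 10 class I genes, 7 MHC class II genes, 8 B-cell markers and 8 DN3 markers in each GFPlo (light) and GFPhi (dark) library, as bars from 0. Class II genes and B-cell markers were highest in GFPhi library 2, and the class I genes in GFPhi library 3.

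The second experiment compared genotypes in total DN3 cells, to ask what the Lmo2 transgene and the loss of p21 do to the same genes. For the classical heavy chains, B2m, Tap1, Tapbp and Nlrc5 no comparison of genotypes passed the test. H2-K1 was at 371, 404 and 420.3 CPM in WT, 409 and 368 CPM in p21-/-, 428 and 368 CPM in Lmo2Tg and 391 and 351 CPM in Lmo2Tg;p21-/- libraries, so that all groups overlapped. B2m was at 863, 920.3 and 974 CPM in WT, 936 and 851 CPM in p21-/-, 965 and 915 CPM in Lmo2Tg and 944 and 903 CPM in Lmo2Tg;p21-/- libraries, again with overlap throughout. Nlrc5 ranged from 39.5 to 50.7 CPM in WT and from 42.9 to 57.1 CPM in the other genotypes, and Tap1 from 145 to 153 CPM in WT and from 127 to 158 CPM in the others. Tapbp ranged from 127 to 131 CPM in WT and was at 121 and 110 CPM in p21-/-, 125 and 106 CPM in Lmo2Tg and 133 and 112 CPM in Lmo2Tg;p21-/- libraries. The p21-/- and the Lmo2Tg libraries thus lay below WT without overlap, but neither comparison passed (edgeR adjusted p = 0.98 and 0.22). H2-D1 was at 307 to 347 CPM in WT, 311 and 344 CPM in p21-/-, 396 and 359.7 CPM in Lmo2Tg and 358 and 339.6 CPM in Lmo2Tg;p21-/- libraries.

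Loss of p21 called none of the 10 genes in WT cells, where edgeR called 0.11% of 11840 genes and 0 of the 10 had an unadjusted p under 0.05. For H2-K1, H2-D1, B2m, Tap1, Tap2, Tapbp and Nlrc5 the log2 fold change of p21-/- against WT lay between -0.15 and 0.04, with standard errors of 0.082 to 0.13. DESeq2 and limma-voom likewise called 0 of the 10. In Lmo2Tg;p21-/- against Lmo2Tg cells, 0 of the 10 were called against 6.94% of all genes, with log2 fold changes between -0.12 and 0.16 for the same 7 genes and standard errors of 0.090 to 0.15. Other lists did hold calls in this comparison. Of 10 other class I heavy chains tested, 1 was higher and 1 lower, and of 12 regulators 2 were higher and 1 lower. The interaction asks whether loss of p21 acts differently with and without the transgene. It called 0 of the 10 genes chosen by name against 1.38% of all genes, and DESeq2 and limma-voom called 0 as well. Of 12 regulators 1 did pass that test: Irf1, which activates class I genes after interferon. Irf1 was at 99.7 to 124 CPM in WT, at 98.0 and 173 CPM in p21-/-, at 279 and 220.4 CPM in Lmo2Tg and at 116 and 109 CPM in Lmo2Tg;p21-/- libraries. Its interaction was -1.43 (SE 0.29, edgeR adjusted p = 0.043). The 2 p21-/- libraries lay far apart, and the number of genes this test called varied widely when 1 library was left out, so the call is uncertain.

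With the Lmo2 transgene, 3 of the 10 genes were higher: H2-Q1, H2-T3 and Tap2. The same 3 were called in Lmo2Tg against WT, where 36.6% of all genes were called and 19.7% were higher, and in Lmo2Tg;p21-/- against p21-/- cells, where these shares were 30.7% and 16.3%. H2-Q1 and H2-T3 passed the filter on low counts only through the transgenic groups, so they had to differ once tested and the count of 3 is a description. The 2 comparisons have no library in common but share 1 estimate of the spread. H2-Q1 was at 0.429, 0.127 and 0.726 CPM in WT (7, 2 and 12 counts) and at 1.77 and 2.60 CPM in Lmo2Tg libraries (24 and 38 counts). It was at 0.234 and 0.316 CPM in p21-/- (4 and 5 counts) and at 1.14 and 2.84 CPM in Lmo2Tg;p21-/- libraries. The log2 fold changes were 2.33 (SE 0.54, edgeR adjusted p = 0.0070) and 2.85 (SE 0.66, adjusted p = 0.0084).

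H2-T3 had 0.245, 0.191 and 0.665 CPM in WT (4, 3 and 11 counts) and 1.26 and 2.67 CPM in Lmo2Tg libraries (17 and 39 counts). In p21-/- libraries it was at 0.234 and 0.253 CPM (4 counts each), and in Lmo2Tg;p21-/- libraries at 0.999 and 2.17 CPM. Log2 fold changes of 2.39 (SE 0.55, edgeR adjusted p = 0.0066) and 2.69 (SE 0.68, adjusted p = 0.013) resulted. The transgenic libraries did not overlap with the others for either gene, and of all genes tested 29.9% were higher without overlap in Lmo2Tg against WT and 35.5% in Lmo2Tg;p21-/- against p21-/- cells. Both genes rest on few counts. Without Lmo2Tg library b the adjusted p was 0.052 for H2-Q1 and 0.084 for H2-T3, and without Lmo2Tg;p21-/- library 2 it was 0.079 and 0.10. Without p21-/- library 1 it was 0.058 and 0.070, and without p21-/- library 2 that of H2-T3 was 0.070.

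Tap2, in contrast, is an abundant transcript and the difference was small. It was at 148, 152 and 164 CPM in WT, 149 and 144 CPM in p21-/-, 228 and 174 CPM in Lmo2Tg and 216 and 203 CPM in Lmo2Tg;p21-/- libraries. Every transgenic library was above every other, and the log2 fold changes were 0.38 (SE 0.10, edgeR adjusted p = 0.018) and 0.51 (SE 0.12, adjusted p = 0.0073). The adjusted p was 0.24 without Lmo2Tg library a, 0.056 without WT library 1, 0.059 without Lmo2Tg;p21-/- library 1 and 0.056 without p21-/- library 2. Tap1, its partner in the transporter, did not pass in either comparison. The level of Tap2 cannot be compared with that in the GFP experiment (423 to 619 CPM), because the 2 tables were made apart.

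**Figure D5:**
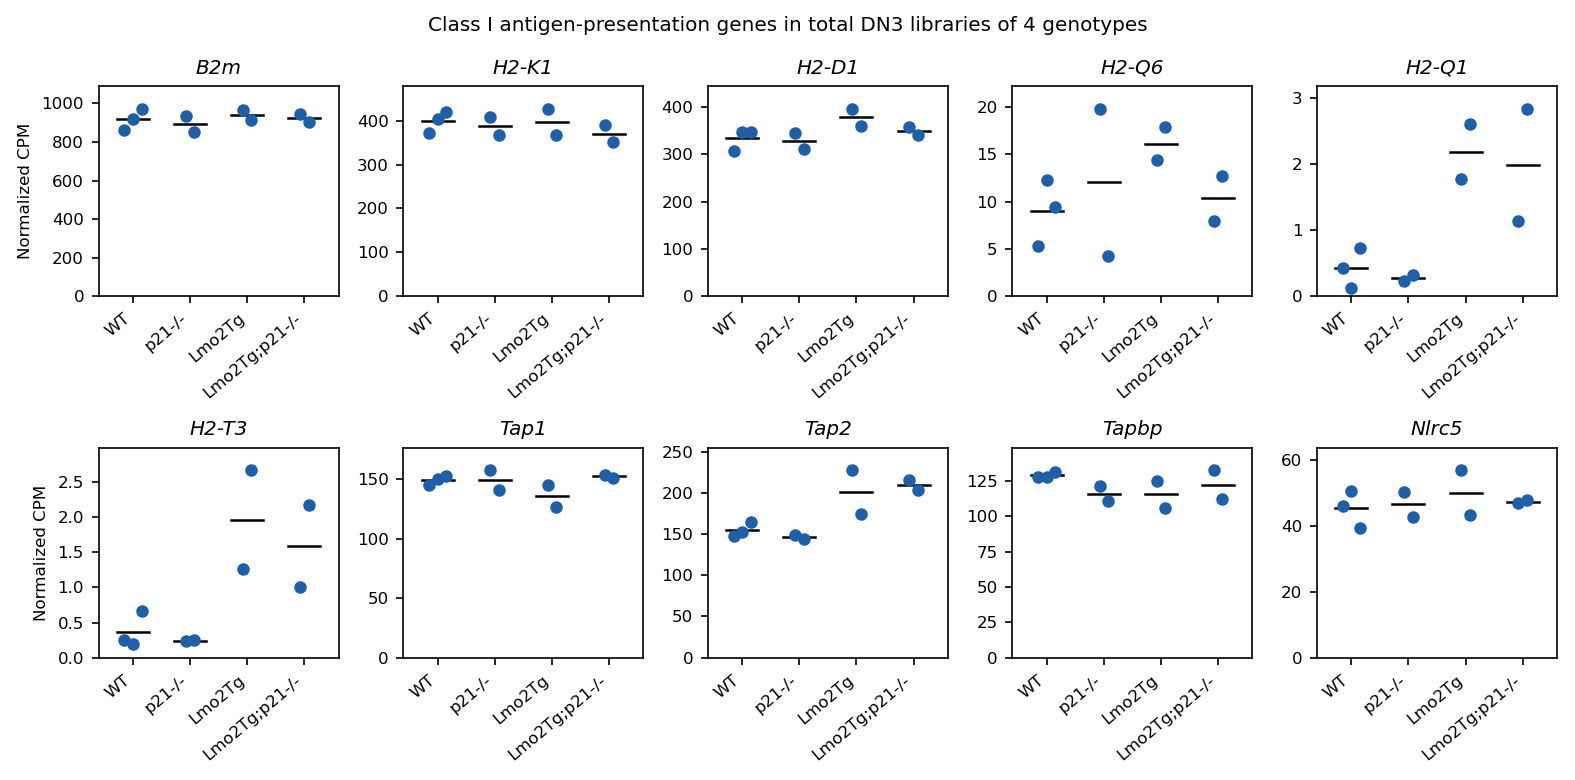
Normalized CPM of the 10 class I genes (1 panel each, linear axis from 0) in total DN3 libraries of WT, p21-/-, Lmo2Tg and Lmo2Tg;p21-/- mice. Points are libraries and lines are group means; H2-Q1, H2-T3 and Tap2 were higher in each of the 4 transgenic libraries, and H2-K1 and B2m overlapped.

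H2-Q6, the gene with the largest difference between GFPhi and GFPlo cells, varied among libraries of 1 genotype. It was at 5.33, 12.3 and 9.49 CPM in WT, 19.9 and 4.24 CPM in p21-/-, 14.4 and 17.9 CPM in Lmo2Tg and 7.99 and 12.7 CPM in Lmo2Tg;p21-/- libraries. The spread within p21-/- was wider than any difference between group means, and the log2 fold changes were 0.84 (SE 0.49, edgeR adjusted p = 0.21) in Lmo2Tg against WT and -0.22 (SE 0.55, adjusted p = 0.79) in Lmo2Tg;p21-/- against p21-/- cells. For the 6 remaining genes, the log2 fold changes lay between -0.16 and 0.18 in the first and between -0.07 and 0.09 in the second of these comparisons.

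Other heavy chains were called with the transgene too. Of the 10 that could be tested, 6 were called higher in Lmo2Tg against WT cells and 0 lower, with a median log2 fold change of 0.49 against -0.01 over all genes. Over all genes tested 19.7% were called higher. H2-Q2 rose by 2.48 (SE 0.20, edgeR adjusted p = 8.2e-06), from 15.6 to 18.7 CPM in WT to 82.3 and 105.9 CPM in Lmo2Tg libraries, and by 2.09 (SE 0.23, adjusted p = 7.8e-05) in Lmo2Tg;p21-/- against p21-/- cells. Its relative H2-Q1, with which it shares words of 50 and of 100 bases, was higher in the same libraries. H2-T23, which encodes the nonclassical molecule Qa-1, rose by 0.65 (SE 0.074, adjusted p = 8.8e-05) and by 1.08 (SE 0.083, adjusted p = 5.9e-06) in these comparisons. H2-Q4, H2-T22, H2-T24 and the lipid-presenting Cd1d1 were the others called in Lmo2Tg against WT cells, with log2 fold changes of 0.34 to 0.81. H2-Q7 fell by 1.11 on the log2 scale (SE 0.35, adjusted p = 0.035) in Lmo2Tg;p21-/- against p21-/- cells, where it was at 60.1 and 27.4 CPM in p21-/- and at 16.3 and 24.2 CPM in Lmo2Tg;p21-/- libraries.

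Among 10 genes of peptide supply and loading, Calr (0.62) and Tapbpl (0.26) were higher and Psmb9 was lower (-0.41) in Lmo2Tg against WT cells, and the list median was -0.12. Over all genes tested 36.6% were called in this comparison. Of 12 regulators 2 were called higher, Irf1 (1.16) and Irf9 (0.36), and 2 were called lower, among them Nfya (-0.34). Among 11 interferon-induced genes Irf7 was higher (0.71) and Iigp1 lower (-2.53). Thymocyte markers moved with the transgene too: 7 of 8 DN3 markers were called lower, with a sum of 6890 to 7630 CPM in WT and of 4230 to 4740 CPM in Lmo2Tg libraries. Of 7 markers of later thymocytes and mature T cells, 5 were called higher and Ccr7 lower, with sums of 955 to 1030 CPM and of 1390 to 1480 CPM. MHC class II genes summed to 42.3 to 44.7 CPM in WT and to 19.1 to 21.7 CPM in Lmo2Tg libraries, with 3 of 7 lower. B-cell markers summed to 33.9 to 40.2 CPM in WT and to 19.2 to 24 CPM in Lmo2Tg libraries. Most of this was Cd79b, called lower, at 31.7 to 39.2 CPM and at 16.6 and 19.9 CPM. Of the 4 B-cell markers tested, 3 had a positive log2 fold change, with a list median of 0.83. NK markers summed to 186 to 205 and 94.4 to 128 CPM, nearly all of it Gzma, called lower (186 to 204 and 128 and 94.1 CPM). Epithelial markers summed to 53.4 to 60.5 and 20.6 to 24.6 CPM, mostly Epcam, called lower (48.0 to 57.0 and 19.5 and 18.0 CPM). Each of these sums thus followed mainly 1 gene. Myeloid markers summed to 16.1 to 21.3 CPM and to 15.6 to 17.8 CPM, with Itgam and Itgax called higher and Lyz2 lower. The part of these shifts in the class I differences was not tested.

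Genes whose level followed that of Nlrc5, H2-K1 or B2m most closely across the 9 genotype libraries were sought among 11026 genes with at least 1 CPM on average. For Nlrc5 they were Sgcb (Pearson's r = 0.91), Sidt1 (0.90) and Ercc6 (0.88). For H2-K1 they were Tex264 (0.89), Pdcd2l (0.87) and Rmnd5b (0.84), and for B2m Sft2d3 (0.90), G6pc3 (0.89) and Nt5m (0.88). The 9 libraries share their depth and genotype structure and the genes were picked as the closest of many, so these values only describe the libraries.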

How the data were processed

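DN3 thymocytes were profiled by poly-A RNA-seq in 2 experiments whose count tables were made separately, and tests were run only within a table. The deposited values are raw read counts per gene, made by the authors with STAR 2.4.2a and featureCounts on mm10 according to the submitters' processing notes. 1 column could not be tied to a labelled sample and was not used.

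Counts were analysed with edgeR's quasi-likelihood test after TMM normalization and a filter on low counts (filterByExpr, minimum count 10, minimum total 15), with all genotype groups in 1 model and Benjamini-Hochberg adjustment over all genes tested. A gene was called at an adjusted p under 0.05. DESeq2, limma-voom, RLE factors, no filter, leave-one-out and a replicate block were alternatives, and the script was tested on simulated data. GENCODE M21 exon lengths (GRCm38) matched 21798 of 22114 genes. Libraries are pools of mice, so p-values measure the spread between pools. Genes named are the 10 members, called genes of listed groups (a list with over 6 calls by 3 or fewer), the 3 genes most correlated with Nlrc5, H2-K1 and B2m, and, outside that rule and after their values were seen, sequence relatives, markers near 0 counts and the label checks Lmo2 and Cdkn1a. The members and lists were chosen with earlier results of these data known.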

Additional observations from a re-analysis of the deposited data

How the results depend on the processing

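For GFPhi against GFPlo cells, 3 of the 10 genes were called. DESeq2 called 5, adding H2-K1 and Nlrc5, and requiring more than 2-fold and an adjusted p under 0.01 left 0. Leaving out 1 library gave 0 to 7 called genes, with 7 only when GFPhi library 3 was left out. With the replicate number as a block 0 of the 10 were called, and 496 genes in all against 1721. Same-numbered libraries did not deviate together (correlations 0.07, -0.079 and 0.099). Deviations were taken from each group's mean, from which GFPhi library 3 stood far apart, so this check could hardly show pairing and does not decide it. The labels do not say that a number marks a cohort, so the numbers were not taken as pairs. For p21-/- against WT the block called 0 of the 10, and 16 genes in all against 13. Over all genes in GFPhi against GFPlo cells, DESeq2 called 2912, the stricter rule 261, and leaving out 1 library 273 to 4848.

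For Lmo2Tg against WT and for Lmo2Tg;p21-/- against p21-/- cells, 3 of the 10 were called and 1 to 3 when 1 library was left out. In the latter, the log2 fold change of H2-Q6, -0.22, became 0.12 with limma-voom and ranged from -0.93 to 1.30 when 1 library was left out. For p21-/- against WT, Lmo2Tg;p21-/- against Lmo2Tg and the interaction, 0 of the 10 were called under every alternative run. Over all genes, leaving out 1 library gave 60 to 1128 calls against 822 for Lmo2Tg;p21-/- against Lmo2Tg, where the compared libraries alone gave 404. The interaction gave 459 with DESeq2, 520 without the filter and 0 to 449 when 1 library was left out, against 163. A 2-fold minimum left 1420 of 4329 genes in Lmo2Tg against WT and 1230 of 3639 in Lmo2Tg;p21-/- against p21-/- cells. Of the 3 genes called in GFPhi against GFPlo cells, H2-D1 and H2-T3 kept the call in 1 and H2-Q6 in 2 of 6 fits that left out 1 library, and each in 5 of 7 other alternatives. Where the cause of a change is not given by the fewer libraries, it was not tested. H2-Q1 and H2-T3 had at most 12 counts in any library without the transgene, so depth limits their fold changes.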
